A study of Arabidopsis thaliana with 6 samples.

Results

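The serine carboxypeptidase-like (SCPL) proteins are a plant family with the fold and catalytic triad of serine carboxypeptidases, enzymes that remove residues from the carboxyl end of proteins. They carry signals for the secretory pathway, and many end up in the vacuole or outside the cell. Some members are peptidases, such as the vacuolar carboxypeptidase Y (SCPL49), while others have become acyltransferases that move an acyl group from a glucose ester to another molecule, the best known being the sinapoyltransferases SNG1 (SCPL8) and SCPL19. Xylem vessel elements digest their own contents with proteases when they mature, and their walls hold lignin, a phenylpropanoid polymer. The substrates of most members are unknown.

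The members described here are the Arabidopsis thaliana genes whose symbol in the array's annotation, updated by a RefSeq gene table, begins with SCPL and a number, leaving out scpl48. The rule found 31 genes, out of 16411 genes with a probe of their own and a gene table entry. The gene table holds 51 family genes. Of these, 31 are the members, 1 is scpl48, and 19 had no probe paired with them alone and were not analysed here. Those 19 include the acyltransferases SNG1, SCPL9, scpl10, SCPL13 and SCPL19 and the brassinosteroid-related BRS1 (SCPL24). Each member is represented by 1 probe. Only scpl50 had 2 probes, and the one with the higher mean was used.

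RNA came from Arabidopsis suspension cells transformed with an estrogen-inducible VND1-GFP construct and was hybridised to Affymetrix AraGene arrays. VND1 is a NAC transcription factor that can start the differentiation of vessel elements. The 3 induced arrays come from cells of that genotype given 5 µM estrogen for 24 h, and the 3 uninduced arrays from cells of the same genotype kept without estrogen for 24 h, all in the dark at 23 °C and 124 rpm. No array holds estrogen-treated cells without the construct, so estrogen and VND1 cannot be told apart, and the labels do not say how many transformed lines were used, nor whether separate cultures stand behind the 3 arrays of each group. The p-values may therefore reflect technical spread only. The arrays measure whole cultures, in which fewer cells of a type and less RNA per cell cannot be told apart. The comparison asks which genes lie downstream of VND1, but it can show only which differ between cells with and without estrogen.

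The 38408 probes of each array had values from 0.30 to 14.05, read as log2. Numbers in the sample titles put 1 induced and 1 uninduced array in a run of 2 and the other arrays in a run of 4. The array medians were 6.08 and 6.15 in the run of 2 and 5.41 to 5.55 in the run of 4, and 37.4% of all probes differed between the runs (limma, Benjamini-Hochberg adjusted p under 0.05). Both runs hold both groups, and changes are also given within each run. In each run the uninduced arrays have lower numbers than the induced ones, so group and number order cannot be told apart there. The 3 vessel element markers with a probe of their own, out of 10 listed, all rose. The xylan synthesis gene GUT2 gave 2.78 ± 0.16 on the log2 scale (SE, limma adjusted p = 0.00292) and IRX15-L, another, 2.87 ± 0.30 (adjusted p = 0.0266). The cell death marker AT4G18425 gave 4.18 ± 0.52 and passed the threshold of 0.05 narrowly (adjusted p = 0.0491). These markers were listed with earlier results of these data known. The level of VND1 itself was not analysed here.

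2 of the 31 members, scpl20 and scpl28, rose after induction, 0 fell and 29 were not called (limma, adjusted p under 0.05 over all 38408 probes). That is 6.45% of the members higher, where 0.534% of all probes were called higher and 0% lower. Of all probes 20927 have no gene, and the share called among probes with 1 gene was not computed. At an unadjusted p under 0.05 the members called higher were 4, or 12.9%, with scpl29 and SCPL45 added, against 3% of all probes, and 0 members were lower, against 2.74% of all probes. The median change over the 31 members was 0.05 on the log2 scale, beside -0.02 over all probes and -0.004 over probes with 1 gene. 18 members were positive and 13 negative.

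scpl20 (AT4G12910, chromosome 4) showed the larger rise. Its level was 9.65, 9.40 and 9.48 on the induced arrays and 7.86, 7.77 and 7.83 on the uninduced arrays. All induced arrays lay above all uninduced ones by far more than the spread within either group, which was 0.13 (SD, n = 3) in induced and 0.04 (SD, n = 3) in uninduced cells. The rise was 1.69 ± 0.13 on the log2 scale (SE, limma adjusted p = 0.00887), or 3.23-fold, with a 95% interval of 1.37 to 2.01. It was 1.79 in the run of 2 and 1.64 in the run of 4. Its probe stood at percentile 73.6 of its array where it was lowest and 89.6 where it was highest, so it was in the upper part of the distribution in uninduced cells too.

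scpl28 (AT2G35770, chromosome 2) gave 9.87, 9.70 and 9.65 on the induced arrays and 8.58, 8.60 and 8.5 on the uninduced arrays. Again the groups did not overlap, and the uninduced arrays lay close together (SD 0.05, n = 3). The rise was 1.18 ± 0.13 on the log2 scale (SE, limma adjusted p = 0.0298), or 2.26-fold, with a 95% interval of 0.87 to 1.49. Within the runs of 2 and 4 it was 1.28 and 1.13. Both family rises were modest beside the others on the array. The 205 probes called higher had a median rise of 2.55 on the log2 scale, and scpl20 and scpl28 ranked at 154 and 194 among them.

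**Figure D1:**
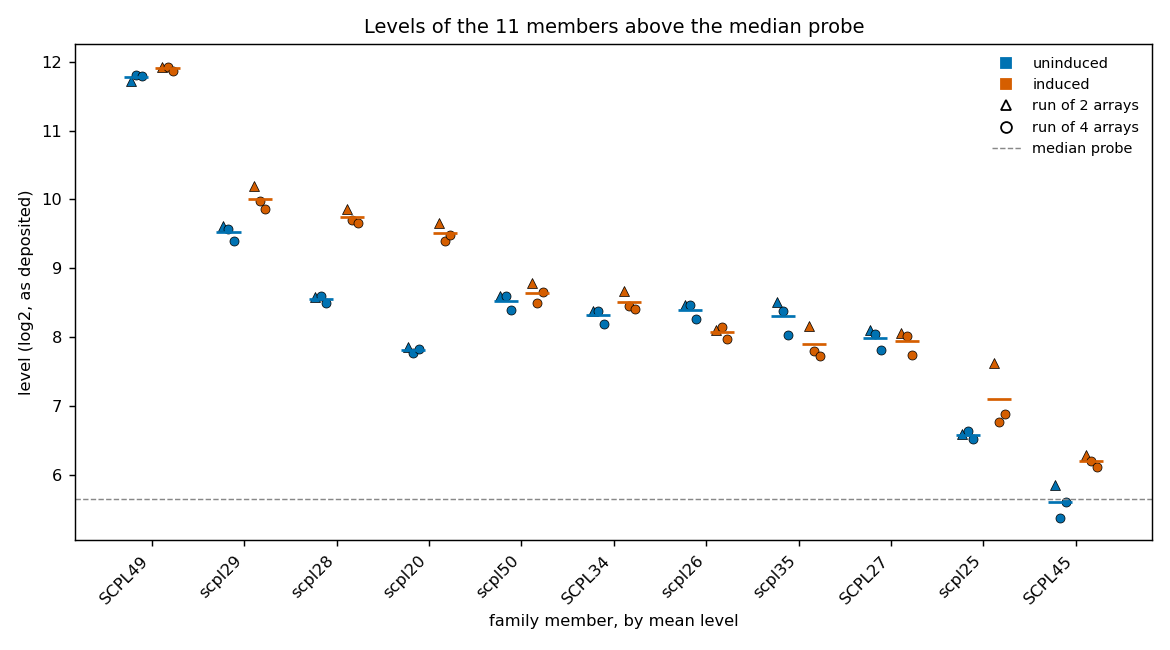
Deposited log2 level (vertical axis) of the 11 members whose mean over 6 arrays lies above the median probe (dashed line, 5.65), ordered by that mean; blue points are uninduced and orange points induced arrays, triangles the run of 2 and circles the run of 4, and bars the mean of 3 arrays. The induced points of scpl20 and scpl28 stand clear of the uninduced ones, while those of scpl50, scpl35 and SCPL27 overlap.

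The calls were not kept in every setting, and why they were lost was not tested. The call of scpl20 was lost in 4 of 6 fits that left out 1 array (without induced replicate 2 or 3, or uninduced replicate 2 or 3, adjusted p from 0.076 to 0.0986), and that of scpl28 in all 6 (adjusted p from 0.101 to 0.244), in the run of 4 alone (0.0867) and after centring each array on its median (0.191). The size of the change lay between 1.62 and 1.75 for scpl20 and between 1.12 and 1.22 for scpl28 over 14 other settings.

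**Figure D2:**
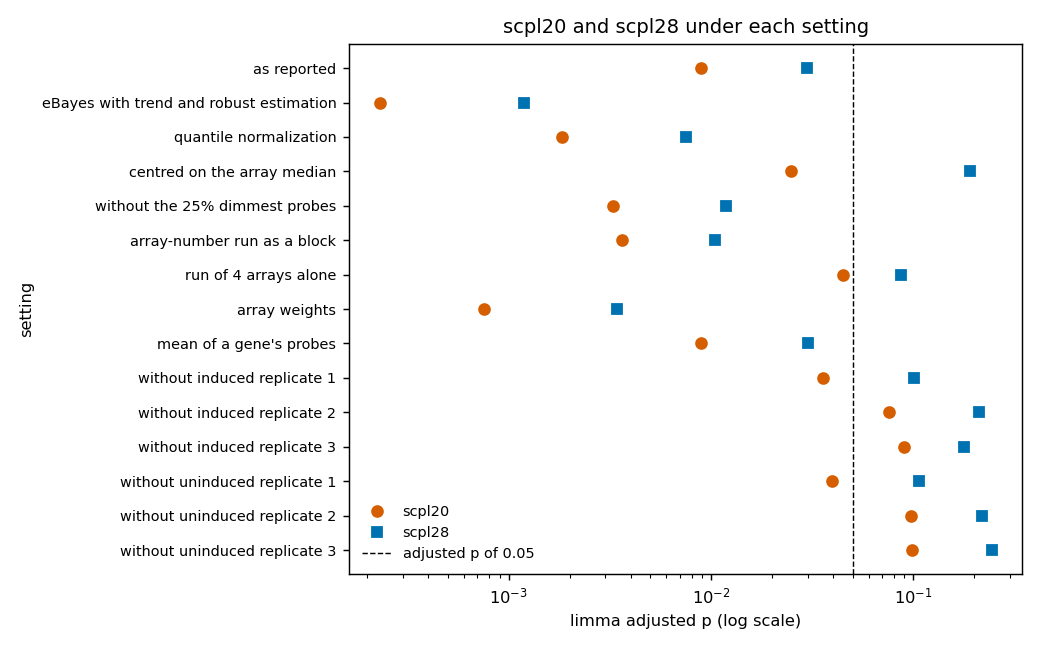
limma adjusted p (log scale) of scpl20 (orange circles) and scpl28 (blue squares) as reported and under 14 other settings, with a dashed line at 0.05. scpl20 stays left of the line in 10 of the 14 and scpl28 in 6.

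The other members split by the level of their probe. A probe's level depends on its own hybridisation as well as on its transcript, so levels are compared here only with the array's distribution and not between genes. The means of 11 members lay above that of the median probe (5.65), from 5.91 for SCPL45 to 11.84 for SCPL49, and the means of 20 lay below it, from 2.38 for scpl31 to 5.18 for SCPL15. They are called bright and dim members here. Both called genes belong to the 11. Standard errors were 0.11 to 0.25 (median 0.14) among the 11 and 0.17 to 0.76 (median 0.40) among the 20. When the fit took the run as a block they were 0.08 to 0.19 (median 0.10) and 0.10 to 0.37 (median 0.18).

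Among the 11, induced and uninduced arrays lay fully apart with induced higher in 7 (63.6%), and with induced lower in 1 (9.09%). Over all 19204 probes above the median probe these shares were 8.78% and 13.7%. Over all 31 members the counts were 7 higher (22.6%) and 3 lower (9.68%), against 5.7% and 7.81% of all probes. The changes of 8 of the 11 were positive in both runs (72.7%, against 27.2% of probes above the median probe) and those of the other 3 were negative in both (27.3%, against 41.1%). After centring each array on its median the counts apart among the 11 were 4 higher and 1 lower, and after quantile normalization 6 and 2. Under either scaling 8 of the 11 were positive in both runs, and 2 were negative in both after centring and 3 after quantile normalization. The shares of all probes under these 2 scalings are not given here, and the shares above apply only to the values as deposited. SCPL45 counts among the 7 and the 8, and its mean exceeds that of the median probe (5.65) through its induced arrays. It averaged 6.20 in induced and 5.61 in uninduced cells. These shares are descriptions, since the split by level used the induced arrays too and genes of a family are not independent replicates.

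SCPL45 (AT1G28110) had levels of 6.290, 6.195 and 6.117 in induced cells and 5.857, 5.378 and 5.603 in uninduced cells. The groups were apart, but the uninduced arrays spread more widely (SD 0.24, n = 3) than the induced ones (SD 0.09, n = 3). The difference was 0.59 ± 0.17 on the log2 scale (SE, limma adjusted p = 0.620), with a 95% interval of 0.18 to 1.001. Its probe stood at percentile 46.5 to 58.8 of the arrays.

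scpl29 (AT4G30810) gave 10.20, 9.97 and 9.86 on the induced arrays and 9.62, 9.57 and 9.39 on the uninduced arrays, at percentile 88.8 to 92.6. The groups did not overlap, and the change was of the same sign in the runs of 2 and 4, at 0.58 and 0.43. It came to 0.48 ± 0.15 on the log2 scale (SE, limma adjusted p = 0.700), with a 95% interval of 0.11 to 0.85.

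scpl25 (AT3G02110) gave 7.63, 6.78 and 6.89 in induced cells and 6.59, 6.64 and 6.52 in uninduced cells. Here a single array, induced replicate 1, stood well above the other induced arrays, and the difference was 0.52 ± 0.25 on the log2 scale (SE) with it and 0.25 without it. The change was 1.04 in the run of 2, which holds that array, and 0.25 in the run of 4. The difference did not pass the test (limma adjusted p = 0.958).

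SCPL49 (AT3G10410), the vacuolar carboxypeptidase Y, was among the brightest probes of every array, at percentile 98.1 to 98.9. Its levels were 11.93, 11.92 and 11.87 in induced cells and 11.73, 11.80 and 11.79 in uninduced cells. The groups were apart by a very small margin, and the difference of 0.13 ± 0.11 on the log2 scale (SE) had a 95% interval of -0.15 to 0.42, which does not reach a 2-fold change in either direction. SCPL34 (AT5G23210) also had groups just apart, with 8.67, 8.46 and 8.41 against 8.38, 8.38 and 8.20 and a difference of 0.19 ± 0.14 (SE). scpl50 (AT1G15000) gave 8.79, 8.49 and 8.66 against 8.59, 8.60 and 8.40, overlapping, with a difference of 0.11 ± 0.14. The second scpl50 probe lay much lower, with group means of 4.28 and 4.25, and gave 0.02 ± 0.35. The probes thus differed in level while neither passed the test.

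3 members of the 11 had negative changes. scpl26 (AT2G35780) gave 8.11, 8.15 and 7.97 in induced and 8.47, 8.46 and 8.26 in uninduced cells, with the groups apart. Its change was -0.32 ± 0.13 on the log2 scale (SE, limma adjusted p = 0.872), with a 95% interval of -0.652 to 0.004. scpl35 (AT5G08260) gave 8.17, 7.81 and 7.72 against 8.51, 8.38 and 8.03, which overlap, and a change of -0.41 ± 0.20. SCPL27 (AT3G07990) gave 8.06, 8.02 and 7.74 against 8.11, 8.04 and 7.82, a change of -0.05 ± 0.16 with the same value in both runs to 2 decimals. A second probe shared by SCPL27 and its neighbour AT3G08000 cannot be given to either gene, and gave 0.12 ± 0.34.

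**Figure D3:**
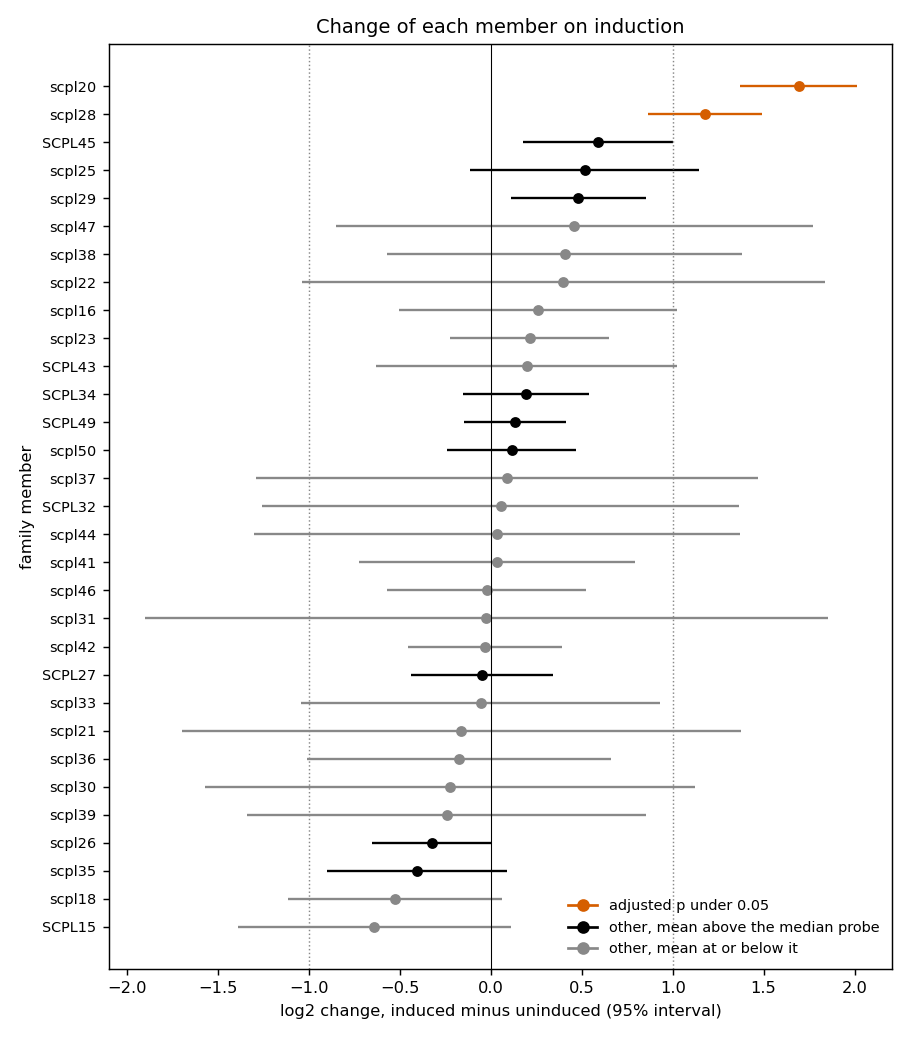
log2 change, induced minus uninduced, of each of the 31 members with its 95% interval from limma; orange marks the 2 members with an adjusted p under 0.05, black the other 9 members above the median probe and grey the 20 at or below it, and dotted lines mark a 2-fold change either way. The grey intervals are mostly wide and 16 of the 20 reach a 2-fold change in this fit, which leaves out the run, where 4 do with the run as a block.

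None of the 20 members at or below the median probe passed the test (lowest limma adjusted p 0.929), and at an unadjusted p under 0.05 the count was also 0 in either direction. Their changes ran from -0.64 to 0.46 on the log2 scale, 10 positive and 10 negative, with a median of 0.005. The 95% interval of 16 of them included a 2-fold change, as did those of SCPL45 and scpl25 among the 9 members above the median probe that were not called. With the run as a block the standard errors of most dim members were smaller, for scpl31 0.11 in place of 0.76 and for scpl22 0.13 in place of 0.58. The intervals of 4 of the 20 (SCPL15, scpl18, scpl39 and scpl47) then included a 2-fold change, and among the uncalled members above the median probe that of scpl25 did.

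The most negative changes of the family were those of 2 dim members. SCPL15 (AT3G12240) gave 5.14, 4.47 and 4.98 in induced cells and 6.03, 5.25 and 5.22 in uninduced cells. The lowest uninduced array lay only just above the highest induced one, and the change was -0.64 ± 0.30 (SE, limma adjusted p = 0.946). scpl18 (AT1G33540) gave 4.68, 4.33 and 5.18 against 5.26, 5.32 and 5.19, with uninduced arrays close together (SD 0.07, n = 3) and induced arrays scattered (SD 0.43, n = 3). Its highest induced array, at 5.181, lay only just below its lowest uninduced one, at 5.192. The change of scpl18 was -0.53 ± 0.24 on the log2 scale (SE). Both values depended on single arrays. Leaving out uninduced replicate 1 gave -0.38 for SCPL15 and leaving out uninduced replicate 3 gave -0.78, and the value of scpl18 was -0.33 without induced replicate 2 and -0.75 without induced replicate 3. SCPL15 and scpl18 are the 2 dim members whose groups were apart with induced lower, 10.0% of the 20, where 1.91% of probes at or below the median probe were so.

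The largest positive changes among the dim members were those of scpl47 (0.46 ± 0.53 on the log2 scale, SE), scpl38 (0.41 ± 0.39) and scpl22 (0.40 ± 0.58), each with overlapping groups. scpl47 gave 4.66, 3.47 and 3.87 in induced cells and 4.46, 3.44 and 2.72 in uninduced cells, and with 1 array left out its change ran from 0.049 (without uninduced replicate 3) to 0.92 (without uninduced replicate 1). scpl39 had a spread of 0.88 (SD, n = 3) in induced cells against 0.07 (SD, n = 3) in uninduced cells. Its levels were 4.27, 2.61 and 2.95 against 3.44, 3.54 and 3.57, so the induced array of the run of 2 was above and the induced arrays of the run of 4 below all uninduced arrays.

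scpl31, whose probe was the dimmest, gave 3.49, 1.83 and 1.77 in induced and 3.76, 1.64 and 1.77 in uninduced cells. The arrays of the run of 2 were the high ones in both groups, and the change was -0.03 ± 0.76 on the log2 scale (SE), turning to 0.058 after quantile normalization. scpl41, a member reported to act in lipid metabolism, was close to the dim end too, at 3.14, 3.01 and 2.42 against 3.29, 2.74 and 2.42, with a change of 0.03 ± 0.30. scpl36, scpl30 and scpl21 gave -0.18 ± 0.34, -0.22 ± 0.54 and -0.16 ± 0.62. The other dim members, scpl16, scpl23, SCPL43, scpl37, SCPL32, scpl44, scpl46, scpl42 and scpl33, had changes between -0.06 (scpl33) and 0.26 (scpl16).

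**Figure D4:**
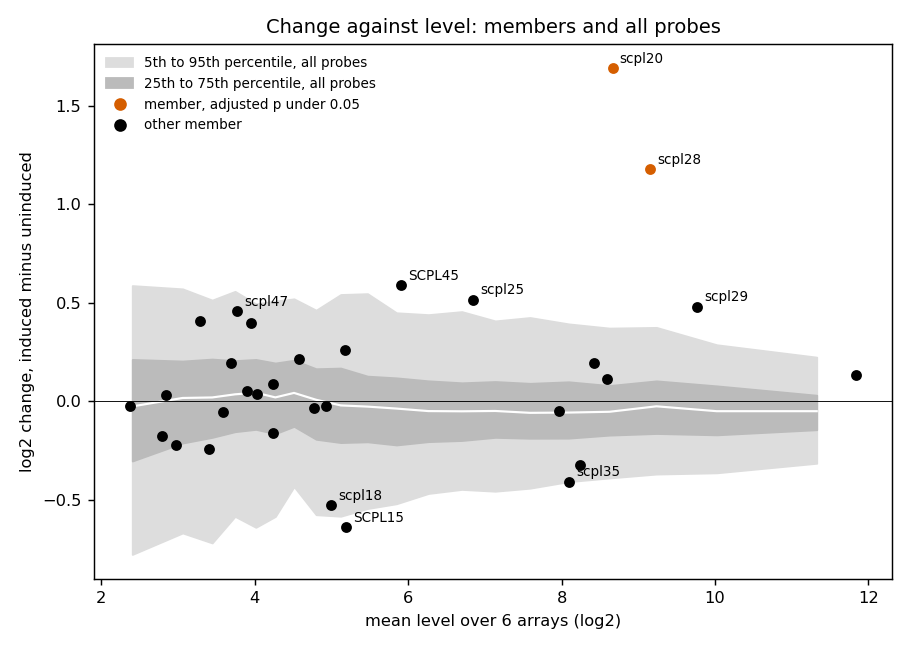
log2 change (vertical axis) against mean log2 level over 6 arrays (horizontal axis) of the 31 members (points, orange where the adjusted p is under 0.05), over bands for all 38408 probes in 20 bins of equal size by level. 5 members lie above the 95th percentile of their bin (scpl20, scpl28, SCPL45, scpl25 and scpl29) and 1 below the 5th (SCPL15).

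Set against the probes of similar level, scpl20 and scpl28 both stood at percentile 99.3 of the changes in their level bin, scpl29 at 97.6, SCPL45 at 96.6 and scpl25 at 95.8. The bin of scpl29 had its 95th percentile at a change of 0.29 on the log2 scale. At the other end SCPL15 stood at 3.4, scpl35 at 5.1 and scpl18 at 6.5.

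Levels also differed between the array-number runs. Over all 31 members 13 differed (41.9%, limma with group and run as terms, adjusted p under 0.05), close to the 37.4% of all probes. All 13 were among the 20 dim members (65.0%, against 50.6% of probes at or below the median probe). The median difference over all 20 dim members, run of 4 minus run of 2, was -0.81 on the log2 scale. Of the 11 bright members 0 differed by that test, against 24.1% of probes above the median probe, with a median of -0.16 and a range of -0.40 to 0.02. The largest difference was that of scpl31, at -1.88. With the run as a block, scpl20 (adjusted p = 0.00364) and scpl28 (0.0104) were again the 2 members called higher and 0 were lower, where 0.992% of all probes were higher and 0.0338% lower.

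The change itself could be read separately in each run, which share no array. Across the 11 bright members the changes in the runs of 2 and 4 correlated at a Pearson r of 0.93, and across the 20 dim members at 0.14. The 11 include scpl20 and scpl28, which had the largest changes in both runs and weigh heavily on the first value. A correlation without them was not computed. These are correlations across genes, which share the arrays of a run and are not independent. 0 of the 31 members had a change that differed between the runs by the interaction term of limma at an adjusted p under 0.05, and 0% of all probes did. At an unadjusted p under 0.05 the interaction count was 3 members (scpl25, scpl39 and scpl42), with 6.18% of all probes. scpl39 gave 0.83 in the run of 2 and -0.78 in the run of 4 (adjusted p = 0.766 for the difference).

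**Figure D5:**
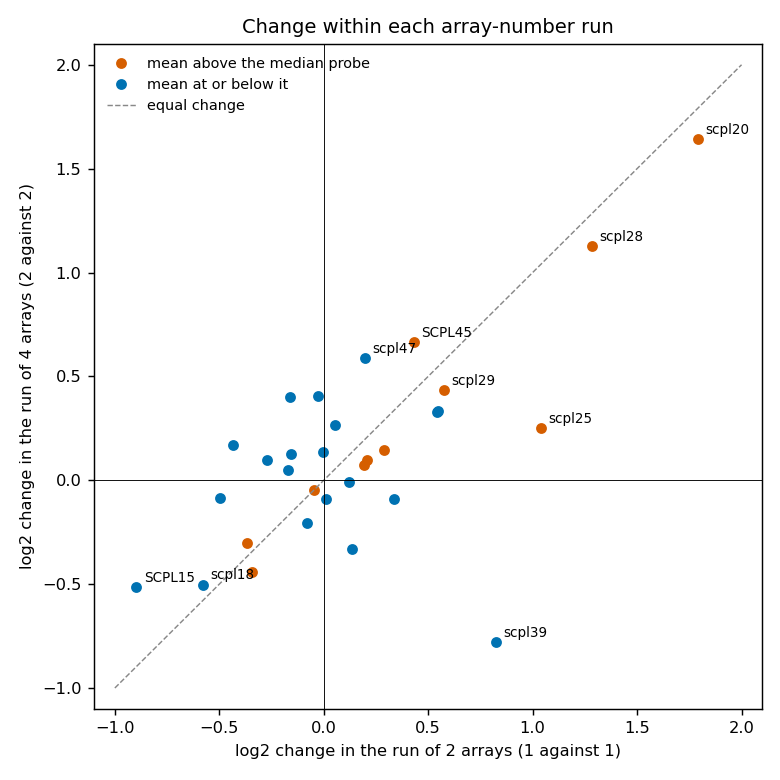
log2 change of each of the 31 members within the run of 2 arrays (horizontal axis, 1 induced against 1 uninduced) and the run of 4 (vertical axis, 2 against 2), orange for the 11 members above the median probe and blue for the 20 others, with a dashed line of equal change. The orange points follow the line, with scpl25 furthest off it, and the blue points scatter around 0.

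Several members are neighbours on a chromosome in the TAIR10.1 gene table, and whether probes of such related copies share signal was not tested. The 2 neighbours scpl28 and scpl26, with no protein-coding gene between them, had changes of 1.18 ± 0.13 and -0.32 ± 0.13 on the log2 scale (SE). The changes of these adjacent genes have opposite signs, but only that of scpl28 was called, and the difference between them was not tested. In the adjacent trio scpl36, scpl37 and scpl39 the changes were -0.18, 0.09 and -0.24, and in the pair scpl22 and scpl23 they were 0.40 and 0.21. scpl16 and SCPL15, which have 1 coding gene between them, gave 0.26 and -0.64. scpl20 has no neighbour among the members. No member shared all its values with another probe.

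The close relative left out by the rule, scpl48, had levels of 13.09, 13.09 and 13.07 in induced and 12.30, 12.31 and 12.39 in uninduced cells. Its groups were far apart for their spread, and its change of 0.75 on the log2 scale, 0.79 in the run of 2 and 0.73 in the run of 4, lay between those of scpl28 and SCPL45. It was not called (limma adjusted p = 0.105). It passed in 4 of 14 other settings, which were the robust fit with a variance trend (adjusted p = 0.00124), array weights (0.0164), the run as a block (0.0318) and leaving out the dimmest probes (0.0365). In the others the adjusted p ran from 0.0749 after quantile normalization to 1 after centring each array on its median.

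For the pathway in which acyltransferases of this family are best known, from phenylalanine to sinapate esters and related glucosides, 8 of 27 listed genes had a probe of their own. Of these, 1 rose and 0 fell, where 0.534% of all probes were called higher and 0% lower. The median change was -0.06 on the log2 scale. The gene that rose was HCT, the hydroxycinnamoyltransferase on the way to lignin monomers, at 1.59 ± 0.13 on the log2 scale (SE, limma adjusted p = 0.0119). The aldehyde dehydrogenase ALDH2C4 (also REF1), which makes sinapate and ferulate, gave -0.09 ± 0.12 (SE). The cinnamoyl-CoA reductase CCR2 gave 0.21 ± 0.19. Among the glucosyltransferases, UGT84A3 gave 0.46 ± 0.70, UGT84A4 -0.15 ± 0.47 and UGT72E1, which acts on lignin precursors, -0.19 ± 0.11, and none of these genes passed the test.

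Of 36 listed vacuolar and secreted proteases and protease inhibitors, 20 had a probe of their own. Among these 20, 1 was called higher, 0 lower and 19 neither, where 0.534% of all probes were called higher and 0% lower. Their median change was 0.09 on the log2 scale. The gene called higher was AT4G04460, the aspartic protease PASPA3, at 1.12 ± 0.13 (SE, limma adjusted p = 0.0429). The subtilase SBTI1.1 gave 7.32, 7.48 and 7.18 in induced and 6.73, 6.68 and 6.83 in uninduced cells, a difference of 0.58 ± 0.14 (SE, limma adjusted p = 0.431). The cathepsin B-like protease AT1G02300 gave 5.47, 5.49 and 5.41 against 4.83, 4.86 and 5.02, a difference of 0.55 ± 0.12 (adjusted p = 0.373). The vacuolar processing enzyme GAMMA-VPE gave 0.44 ± 0.18 (adjusted p = 0.866). The most negative was ATSBT5.2, at -0.27 ± 0.20. 

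Markers of other cell types were few. Both measured genes for dividing cells, AUR1 and AUR2, gave -0.35 ± 0.17 and -0.36 ± 0.14 on the log2 scale (SE). For each gene all induced arrays lay below all uninduced ones, as for 13.7% of probes above the median probe. The sum of their log2 values ran from 18.1 to 18.6 on induced arrays and from 18.8 to 19.3 on uninduced arrays. The procambium genes PHV and LHW gave 0.13 ± 0.14 and -0.14 ± 0.13, the phloem gene OPS 0.20 ± 0.16 and the photosynthesis gene RCA 0.10 ± 0.35. None of these passed the test. Their part in the changes of the SCPL members was not tested.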

How the data were processed

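The submitters' processing notes name Affymetrix Expression Console 1.3 as the tool behind the authors' deposited values, 1 number per probe and array, which were read as log2 from their range. The sources used here do not give the log base, summarisation, background correction or normalization. Groups follow the stimulation label, and replicate numbers follow deposition order and pair nothing.

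Probes were named through the platform annotation, updated by gene ID with a RefSeq gene table (TAIR10.1). Of 38408 probes 16722 had 1 gene, 759 several and 20927 none. All 31 members matched the gene table. No gene coordinates are printed, as the build behind the probes is not given.

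The 6 arrays were fitted with limma 3.58.1 in R 4.3.3 (lmFit, eBayes without trend or robust estimation) on all 38408 probes without further normalization, with Benjamini-Hochberg adjustment over all probes and a threshold of 0.05. The fit was also run on simulated data with noise drawn independently for each array, and the outcome is not given here. Standard errors are moderated, SD is over 3 arrays, and 95% intervals use the moderated degrees of freedom. The number of arrays limits the precision. No exact permutation p of 3 against 3 arrays can be below 0.1, so none was computed.

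The members and lists were chosen with earlier results of these data known. The text describes every member. The naming rule asked for called members, the 8 highest and 8 lowest changes, the 5 brightest and 3 dimmest and those with a known role, and the remaining members, relatives and neighbours named lie outside it. Genes of other lists were named if called or among the 4 with the largest change, and ALDH2C4, UGT84A4 and ATSBT5.2 were added. A planned comparison of protein sequences was not made. The comparison of changes between runs and the level bins were added after the data were seen.

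Alternatives were quantile normalization, a robust fit with a variance trend, array weights, subtracting each array's median, dropping the 25% dimmest probes, the run as a block, the run of 4 alone, the mean of a gene's probes, leaving out each array and an adjusted p under 0.1.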

Additional observations from a re-analysis of the deposited data

How the results depend on the processing

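2 members were called higher and 0 lower in the reported fit. The count of higher members was 1 after centring each array on its median and 1 in the run of 4 arrays alone, and 0 to 1 when 1 array was left out. No member was called lower in any setting. Fewer arrays enter the last of these settings and the run of 4. Why the count moved was not tested for any of these settings. The share of all probes called in them is not given here, so these counts cannot be set against the whole array. The median change over the members, 0.05, ran from -0.13 to 0.30 with 1 array left out. Of 272 values of 20 named members under 14 other settings (13 or 14 each, as the dimmest probes drop out of 1), 244 kept direction and side of the threshold, 12 lost a call (scpl20 and scpl28, as reported) and 16 changed sign, all of them of members that were not called in any setting. scpl31 (-0.03) turned to 0.058 after quantile normalization, 0.10 in the run of 4 and 0.036 with array weights. With 1 array left out scpl31 ran from -0.59 to 0.66, scpl22 from -0.11 to 0.83, scpl41 from -0.17 to 0.27, scpl21 from -0.67 to 0.30, scpl36 from -0.49 to 0.056, scpl30 from -0.59 to 0.28 and scpl39 from -0.74 to 0.091. Among members that kept their sign, SCPL15 ran from -0.78 to -0.38, scpl18 from -0.75 to -0.33, scpl47 from 0.049 to 0.92, scpl38 from 0.081 to 0.66, scpl25 from 0.25 to 0.68 and scpl50 from 0.044 to 0.19. No paired analysis was possible because the labels give no replicate numbers. The run was used as a block instead, and with it the intervals of 4 dim members, not 16, included a 2-fold change. No background level was used here, so what signal over background limits was not tested.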
